A study of Mus musculus with 15 samples.

Results

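Mouse small cell lung cancer lines that lack Stat3 and were derived from the liver were set against Stat3-intact lines derived from the lung. Per the labels, the liver lines have the genotype Rb1-/-:Trp53-/-:STAT3-/-:MYC (RPMS) and the Stat3-intact lines Rb1-/-:Trp53-/-:MYC (RPM), so that loss of Rb1 and Trp53 and the MYC allele are common to all lines. Lines CMV_273, CMV_341, CMV_343 and CMV_344 form the RPMS liver group, and lines CMV_426, CMV_427, CMV_428 and CMV_429 the RPM lung group, each with 1 library of read counts per gene. The groups lie in 2 separately counted tables. The table with the liver lines is called set 2 and the table with the RPM lines set 1. They were tied through RPMS lung lines CMV_228, CMV_231 and CMV_252, which are in both, and RPMS lung line CMV_232 is in set 2. Of the 15 libraries in the series, 8 are compared and 7 tie the tables. The genes were the 40676 of 53376 names shared by both tables that are not annotated as pseudogenes, and 16270 of them passed the filter on low counts and were tested.

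The cells had been taken from tissue and grown in culture medium with little serum before total RNA was extracted. The labels do not say which mice the lines came from or what drove the deletions, so p-values measure the spread between these libraries. The title of the series names Stat3, STING and interferon in metastatic spread, and the comparison asks which differences between RPMS and RPM lung lines are held, grow or shrink in RPMS liver lines.

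STAT3 is a transcription factor that cytokines of the interleukin-6 family activate through JAK kinases. cGAS senses DNA in the cytosol and signals through STING to interferon regulatory factors, and type I interferon then acts through its receptor and transcription factors such as IRF9 on genes with a response element of their own. Small cell lung cancer is typically neuroendocrine, with granins, neural adhesion molecules and synaptic vesicle proteins made under factors such as INSM1 or NEUROD1, and less neuroendocrine states with REST and mesenchymal genes are also known.

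Total counts ran from 9453715 to 18451248 in RPMS liver libraries, from 15278868 to 18399357 in RPMS lung libraries of set 2, from 30178564 to 31345631 in RPMS lung libraries of set 1 and from 25344949 to 28104574 in RPM lung libraries. Levels are given as CPM (read counts scaled to a common library size), and 3 counts, the most that a value of 0 allows, equal 0.0957 to 0.317 CPM. Liver line CMV_344 had the fewest counts and yet the most genes with a count, 30248, against 21362 to 24462 in all other libraries. The set 2 library of lung line CMV_252 also stood apart: its 10 largest genes took 11.3% of its counts, against at most 7.79% elsewhere. Its 27 neuroendocrine genes had the lowest sum of all RPMS libraries, while the other set 2 lung libraries summed to 4342 to 6295 CPM and the set 1 library of the same line to 2581 CPM. Values without line CMV_252 or CMV_344 stand beside some of the counts and calls that move with them, and a count given without such values may move too.

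The labels give lung epithelium as the cell type of every line. Leukocyte and macrophage markers (19 genes, 16 of them tested) summed to 14.95 to 34.2 CPM in RPMS liver libraries, 13.4 to 66.1 and 43.2 to 144 CPM in RPMS lung libraries of sets 2 and 1, and 3674 to 18596 CPM in RPM lung libraries. On these markers all 4 RPM lung libraries go against the label, and no comparison with RPM lines can be made without them. The T cell gene Cd3e was at 0 in all RPM lung libraries, while macrophage genes such as Adgre1 (F4/80) and C1qa were high in every one. Alveolar and airway markers summed to 64.3 to 139 CPM in RPMS liver and 162 to 1419 CPM in RPM lung libraries, and the club cell genes Scgb1a1 and Scgb3a2 and the basal cell gene Krt5 were at 0 in RPM lung libraries. Hepatocyte markers summed to 2.70 to 5.98 CPM in RPMS liver and 44.2 to 227 CPM in RPM lung libraries. Of these 17 markers, 11 were at 0 in all RPM lung libraries, Alb and Hnf4a among them. Apoa2 and Ass1 averaged 0.625 and 2.59 CPM there, so the RPM sum rests on few of the genes. The fibrinogen genes Fga and Fgb were at 0 in liver and RPM lung libraries alike. The part of the leukocyte markers in the differences below was not tested, and in bulk RNA fewer cells of a type and less RNA per cell cannot be told apart.

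The tie between the tables moved some genes strongly. In the joint fit (limma-voom, set as a term, line as a block) the set term was called for 1961 genes higher in set 2 (12.1%) and 1317 genes lower (8.09%) at an adjusted p under 0.05. Gapdh, the glycolytic enzyme often used as a loading control and chosen here after its values were seen, had 2302, 1664, 1745 and 1053 CPM in RPMS liver libraries, against 43.4, 50.4, 46.7 and 40.7 CPM in RPM lung libraries. In set 1 the RPMS lung libraries also had 69.5, 133 and 65.4 CPM, and 1461 to 3187 CPM in set 2. With the set term of 4.59 (log2) taken off, the RPMS liver over RPM lung difference of Gapdh was 0.58 (SE 0.44, adjusted p = 0.356), and without it 5.18. Raw levels of set 2 and set 1 libraries are therefore not comparable gene by gene, and every log2 difference below carries the set term unless it says otherwise. Ratios of counts and folds given as at least some value, used for genes with next to no count in 1 group, are of CPM levels across the sets and do not carry it. Of the 4927 genes called in RPMS liver over RPM lung, 4185 were also called in the same direction without the set term and 1 in the opposite direction.

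Stat3 (chr11:100885098-100939540, GRCm38, minus strand) was checked first. It had 10.96, 15.1, 17.8 and 14.9 CPM in RPMS liver libraries, 8.59 to 28.5 CPM in RPMS lung libraries and 191, 198, 157 and 207 CPM in RPM lung libraries. All RPMS libraries were far below all RPM libraries, as labelled; over all genes tested, the levels of RPMS liver and RPM lung libraries did not overlap for 7677 (47.2%), with the set difference still in them. The log2 fold change was -4.12 (SE 0.43) in liver lines over RPM (adjusted p = 5.33e-05) and -3.77 in lung lines over RPM (adjusted p = 2.12e-06). Counts over the whole gene also take in exons outside a deleted stretch, so the remaining level cannot be read as intact transcript.

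The other genes of the genotype are deleted or expressed in every line per the labels. Rb1, the retinoblastoma protein gene, had 66.9, 58.5, 161 and 59.8 CPM in RPMS liver and 62.9, 39.3, 49.6 and 43.9 CPM in RPM lung libraries, and the difference did not pass (0.83, SE 0.68, adjusted p = 0.397). Trp53, which encodes p53, had 17.9 to 25.8 CPM in RPMS liver and 2.43 to 6.25 CPM in RPM lung libraries without overlap. Its RPMS lung libraries had 13.3 to 23.8 CPM in set 2 and 0.407, 0.582 and 6.80 CPM in set 1. The fitted difference of Trp53 was -1.37 (adjusted p = 0.255) with a set term of 3.81 and 2.43 without that term, and without line CMV_252 it was -2.71 (adjusted p = 0.00447). Myc had 25.6 to 46.0 CPM in RPMS liver and 9.53 to 30.4 CPM in RPM lung libraries, which overlap. Its RPMS lung libraries had 17.1 to 73.6 CPM in set 2 and 0.689, 1.23 and 3.91 CPM in set 1, so that the fit gave -3.69 (SE 0.78, adjusted p = 0.00367) with a set term of 4.47, and 0.77 (adjusted p = 0.531) without it. Whether the set shift of Trp53 and Myc applies to RPM libraries as it does to RPMS lung libraries cannot be read from these tables.

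**Figure D1:**
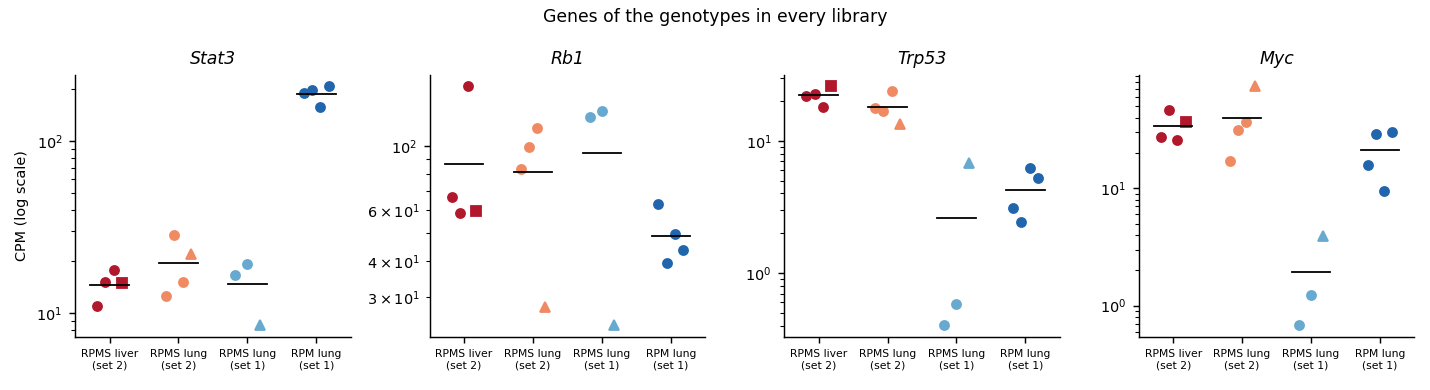
Level of Stat3, Rb1, Trp53 and Myc in each library, in CPM on a log axis, with RPMS liver at the left and RPM lung at the right of each panel. Points are libraries, triangles mark line CMV_252 and squares line CMV_344, and bars are group means. Stat3 separates all RPMS libraries (8.59 to 28.5 CPM) from RPM libraries (157 to 207 CPM), while Trp53 and Myc of the RPMS lung lines differ mostly between sets.

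Most genotype differences of lung lines were also called in liver lines. RPMS liver lines were higher than RPM lung lines for 2713 of the 16270 genes (16.7%) and lower for 2214 (13.6%), at an adjusted p under 0.05 in limma-voom. RPMS lung lines were higher than RPM lung lines for 3369 genes (20.7%) and lower for 2956 (18.2%). These comparisons share the RPM libraries, so that the count in common is a description. Of the 6325 genotype differences of lung lines, 4559 (72.1%) were held, that is called with the same sign in liver lines and not called between liver and lung lines. A further 1765 (27.9%) were not called in liver lines, and 368 genes were called in liver lines and not in lung lines. The held share was 74.3% of the genes higher in RPMS lung lines and 69.6% of the genes lower. Without line CMV_252 the held genes numbered 5081, without lines CMV_252 and CMV_344 they numbered 4836, and in edgeR with the line as a block 3457.

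Growth or shrinkage of a genotype difference was read from RPMS liver over RPMS lung lines, which in the joint fit equals the liver difference minus the lung difference. In limma-voom 1 gene was called higher (Mybpc1, 0.00615%) and 1 lower (Matn4, 0.00615%), and 716 genes (4.40%) had an unadjusted p under 0.05. No genotype difference was called grown, and 1, that of Matn4, was called shrunk. edgeR without a block called 0 genes between liver and lung lines (1084 at an unadjusted p under 0.05), edgeR with the line as a block called 1 and DESeq2 called 78. A missed threshold does not show equality: the 95% interval of liver over lung lay within 2-fold either way for 1765 of the 6325 genotype differences (27.9%) and for 5556 of all genes tested (34.1%). The median half-width of that interval was 1.04 on the log2 scale.

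By size alone, the estimates leaned outward for genes higher in RPMS lines and inward for genes lower. Of the 3369 genes higher in RPMS lung lines, 640 were estimated over 2-fold further from RPM in liver lines and 96 over 2-fold nearer. Of the 2956 lower genes, 154 were further and 365 nearer. These estimates share the RPMS lung libraries with the choice of genes, and line CMV_252 moves many of them, as given below. The same counts were not made over all genes tested or without line CMV_252, so the lean is a description only.

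The largest differences set neuroendocrine and neuronal genes, high in liver lines, against macrophage and interferon genes, high in RPM lung lines. Dcx (doublecortin, a microtubule protein of migrating neurons, chrX:143855842-143933311) had 558, 161, 497 and 413 CPM in RPMS liver libraries and no count in any RPM lung library, which is at least 3421-fold higher against a floor of 3 counts per library (adjusted p = 0.0061). Eef1a2, a translation elongation factor of neurons and muscle, had 614, 510, 1630 and 1019 CPM in RPMS liver and 3.43, 0, 0 and 0 CPM in RPM lung libraries (log2 fold change 13.73, SE 2.33, adjusted p = 0.00099). Every liver library was above every RPM library for both genes, which the rule for naming the largest differences required. Such bounds are taken from levels as counted, without the set term.

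Chga (chromogranin A, a core protein of secretory granules) had 272, 390, 1275 and 500 CPM in RPMS liver libraries and 6.81, 0, 0 and 0 CPM in RPM lung libraries (log2 fold change 14.48, adjusted p = 0.00901). Scg3, a granin that binds chromogranin A in granules, had 115 to 267 CPM in RPMS liver and 4.05, 0, 0 and 0 CPM in RPM lung libraries. RPM line CMV_426 was the sole RPM library with counts for Chga, Scg3 and Eef1a2. Grik3, a kainate receptor subunit, was at least 590-fold higher and Lrrn1, a neuronal leucine-rich repeat protein, at least 690-fold higher, with no count in any RPM library. In RPMS lung line CMV_252 of set 2, Dcx had 0.672 CPM, Chga 1.57 CPM and Scg3 1.05 CPM, against 102 to 251, 241 to 450 and 132 to 221 CPM in the other set 2 lung libraries.

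Cd36, a scavenger and fatty acid receptor of macrophages, had 0, 0.104, 0 and 0.187 CPM in RPMS liver libraries and 2181, 2246, 760 and 333 CPM in RPM lung libraries (log2 fold change -15.44, SE 2.53, adjusted p = 0.000805). Ctss, the lysosomal protease cathepsin S, had 0, 0, 0.106 and 0.187 CPM in RPMS liver libraries and 1591, 713, 458 and 699 CPM in RPM lung libraries (-15.03, SE 1.85, adjusted p = 0.000142). Ifitm3, an interferon-induced membrane protein that restricts viral entry, had counts in liver line CMV_341 alone (0.365 CPM) and 108 to 505 CPM in RPM lung libraries (-14.80, adjusted p = 0.000684). The 2 groups did not overlap for any of these genes, which the naming rule required. The RPMS lung libraries had at most 1.72 CPM, the Ifitm3 level of line CMV_252 in set 2.

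Gpnmb, a glycoprotein of macrophages and melanosomes, had at most 0.656 CPM in RPMS liver and 2425 to 12855 CPM in RPM lung libraries, and Siglec1, the macrophage sialoadhesin, at most 0.886 against 62.6 to 769 CPM. Cybb, the catalytic subunit of the phagocyte NADPH oxidase, had 3 counts in all RPMS liver libraries and 78732 in all RPM lung libraries. The CPM level of the liver libraries was 5.69e-05 of that of the RPM libraries without the set term (1.59 for Cybb), with a 95% counting interval from 1.17e-05 to 0.000166 that covers counting error only. Cybb passed in limma-voom (adjusted p = 0.00416) and did not pass in edgeR (adjusted p = 0.11).

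**Figure D2:**
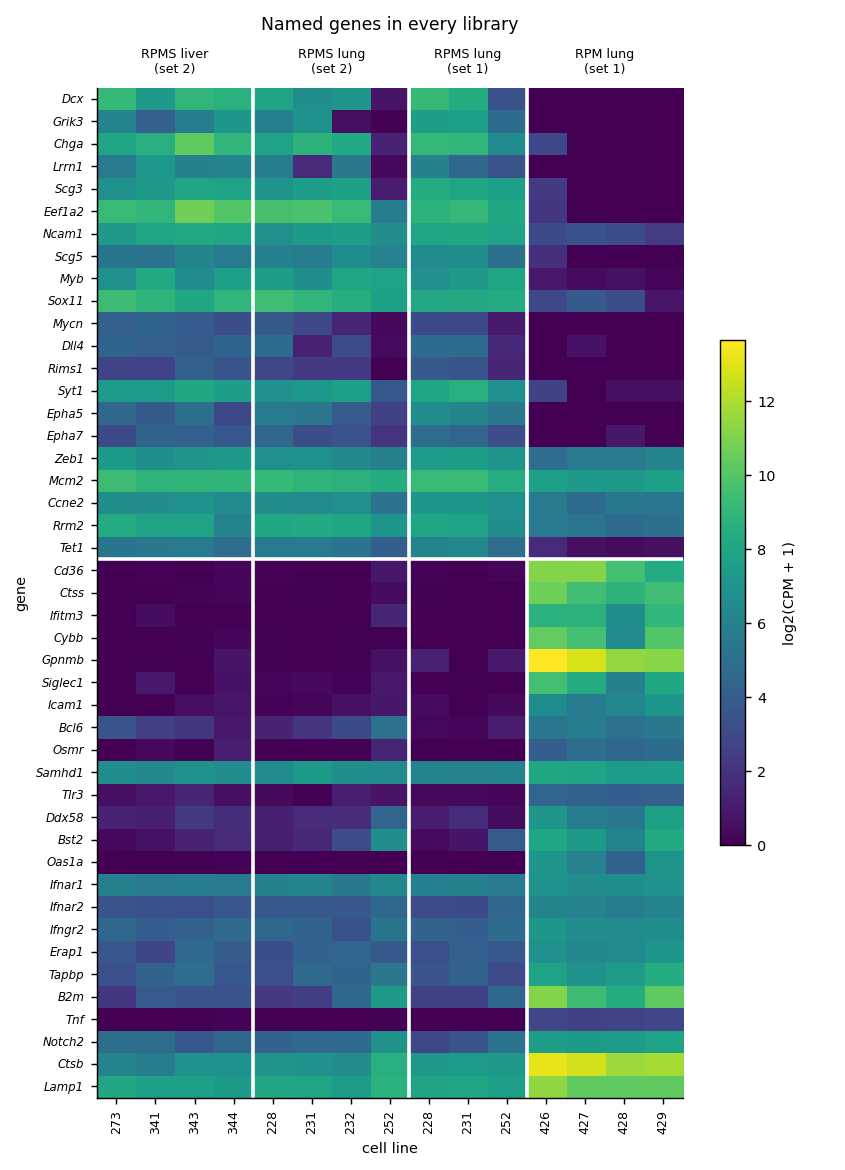
Heat map of log2(CPM + 1) of named genes (rows) in each of the 15 libraries (columns), with RPMS liver at the left and RPM lung at the right. The neuroendocrine genes are bright in RPMS libraries, apart from line CMV_252 of set 2, and dark in RPM libraries, and the macrophage and interferon genes show the reverse.

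To set these genes beside the sequence at their starts, 2 motifs were searched on both strands in the 250 bases before each gene start of the RefSeq promoter table (GRCm38.p6). The STAT site was written as TTCNNNGAA and the interferon-stimulated response element as GAAANNGAAA, and over 27025 genes 8.13% had the first and 3.46% the second. None of the 6 genes with the largest higher values had either motif. Of the 5 matched genes with the largest lower values, Ctss and Cybb had the response element and none had the STAT site. Of 26 matched genes of the STAT3 list, 3 (11.5%) had a STAT site, and of 26 matched interferon response genes, a list searched after values were seen, 9 (34.6%) had the response element and 4 (15.4%) a STAT site. Shown are Ctss, which has the lowest fold change of the named genes with a match, Oas1a, an interferon response gene with both motifs, and Icam1, the STAT3 list gene with the smallest p. The match of Ctss starts 21 bases before the gene start and the STAT site of Icam1 42 bases. Oas1a has the STAT site 98 bases before its start and 2 response elements that overlap each other. The response element reads TTTCNNTTTC on the other strand, and capitals mark the matches; each window is written 5′ to 3′ on the gene's strand, and a match is a description and not a binding site.
Ctss (chr3:95526536-95526785, plus strand): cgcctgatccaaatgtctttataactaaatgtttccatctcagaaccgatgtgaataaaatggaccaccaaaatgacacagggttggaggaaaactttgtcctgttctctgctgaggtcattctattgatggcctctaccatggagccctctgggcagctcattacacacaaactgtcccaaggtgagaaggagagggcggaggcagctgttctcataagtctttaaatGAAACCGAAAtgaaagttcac
Oas1a (chr5:120907526-120907775, minus strand): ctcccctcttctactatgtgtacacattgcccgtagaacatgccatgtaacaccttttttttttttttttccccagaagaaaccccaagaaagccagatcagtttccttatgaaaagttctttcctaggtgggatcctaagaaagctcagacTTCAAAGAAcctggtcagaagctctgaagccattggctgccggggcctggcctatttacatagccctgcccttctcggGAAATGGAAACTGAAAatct
Icam1 (chr9:21015690-21015939, plus strand): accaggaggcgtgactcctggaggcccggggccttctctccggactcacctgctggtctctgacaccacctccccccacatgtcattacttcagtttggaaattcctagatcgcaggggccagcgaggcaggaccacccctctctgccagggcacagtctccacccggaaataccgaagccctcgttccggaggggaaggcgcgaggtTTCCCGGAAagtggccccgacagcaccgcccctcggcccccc

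The STAT3 and interleukin-6 list had 11 of 28 genes lower and 1 higher in RPMS liver over RPM lung lines, and 16 lower and 1 higher in RPMS lung over RPM lung lines, with a median log2 fold change of -2.19 in liver lines against 0.08 over all genes tested. Icam1, an adhesion molecule whose promoter window is shown above, had 0, 0, 0.423 and 0.750 CPM in RPMS liver and 99.9, 46.5, 79.0 and 143 CPM in RPM lung libraries (log2 fold change -10.92, SE 1.70, adjusted p = 0.000599). The median of the lung lines was -1.69. Of all genes tested, 13.6% were lower and 16.7% higher in liver lines, and 18.2% and 20.7% in lung lines, each over RPM. List counts here and below stand beside these shares. In each list that fell here and below, the leukocyte sums given above separate the same libraries, and their part was not tested. Bcl6, a transcriptional repressor, had 0.937 to 10.6 CPM in RPMS liver and 34.1 to 54.4 CPM in RPM lung libraries (-7.36, adjusted p = 0.000662). Neither gene overlapped between the groups in CPM, as for 47.2% of all genes tested. The oncostatin M receptor Osmr fell by 10.05 and the kinases Tyk2 and Jak1 by 2.36 and 1.36 on the log2 scale. Ptpn11, the phosphatase SHP2, was the member that rose (0.91, adjusted p = 0.0143). Its levels overlapped, at 145 to 268 CPM in RPMS liver and 151 to 170 CPM in RPM lung libraries. The set term of Ptpn11 was -0.57 (adjusted p = 0.0148), and without that term its difference was 0.34 (adjusted p = 0.227). Socs3, the feedback inhibitor that STAT3 induces, had 13.3 to 37.3 CPM in RPMS liver and 14.6 to 32.2 CPM in RPM lung libraries, and its difference of -0.71 did not pass (adjusted p = 0.273). The receptor chain Il6st, which encodes gp130, was at -0.78 and Pim1 at 0.50, neither past the threshold.

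Of 20 tested genes of cytosolic DNA and RNA sensing, 14 fell in RPMS liver lines and 15 in RPMS lung lines, each over RPM lung lines. The other members did not pass. The shares of all genes called lower were 13.6% in liver lines and 18.2% in lung lines. The median in liver lines was -4.25, and without line CMV_252 the count in liver lines was 9. Trex1, an exonuclease that degrades cytosolic DNA, was at 0 in every set 2 library, of liver and lung lines alike, with a set term of -6.45 (adjusted p = 0.0353) and a liver over RPM difference of -0.23 (adjusted p = 0.965). Set at its bound across the sets, which holds that set difference, Trex1 would move the list's median to -4.81. Tmem173, which encodes STING, had 3.12, 2.03, 2.22 and 3.28 CPM in RPMS liver and 71.4, 51.4, 20.3 and 35.0 CPM in RPM lung libraries. These groups did not overlap, yet the bridged log2 fold change of -3.33 (SE 1.33) did not pass (adjusted p = 0.0775) and was -1.71 without line CMV_252 (adjusted p = 0.232), while RPMS lung over RPM lung lines gave -4.49 (adjusted p = 0.00178). Mb21d1, which encodes cGAS, had 0.212, 1.46, 21.8 and 3.37 CPM in RPMS liver and 15.3 to 36.6 CPM in RPM lung libraries, with line CMV_343 inside the RPM range (-2.73, adjusted p = 0.187). Irf3, the factor activated by STING, was at -0.45 (adjusted p = 0.492). STING, cGAS, Irf3 and the other sensing genes outside the naming rule were picked after their values were seen.

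RNA sensors fell as well. Ddx58, which encodes RIG-I, had 1.20 to 3.97 CPM in RPMS liver and 43.8 to 217 CPM in RPM lung libraries (-7.32, SE 1.60, adjusted p = 0.0044). Tlr3, a receptor for double-stranded RNA, had 0.423 to 1.64 against 15.9 to 20.8 CPM (-4.89, adjusted p = 0.00179), and Samhd1, a dNTP hydrolase, 83.6 to 129 against 178 to 289 CPM (-1.91, adjusted p = 0.000683). Trim25, the ubiquitin ligase of the RIG-I pathway, split the liver lines: it had 0.159, 0.938, 83.8 and 47.6 CPM in lines CMV_273, CMV_341, CMV_343 and CMV_344, against 181, 272, 84.8 and 408 CPM in RPM lung libraries. Its RPMS lung libraries had 77.6 to 538 CPM, so that the difference was -5.98 in liver lines (adjusted p = 0.0122) and -1.01 in lung lines (adjusted p = 0.394), and the difference between liver and lung of -4.97 did not pass after adjustment.

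Of 32 tested genes of the type I interferon response, 18 fell in RPMS liver lines and 27 in RPMS lung lines over RPM lung lines. Among all genes tested, 13.6% and 18.2% were called lower. The list's liver median was -5.77 and its lung median -6.47. Its sum, over the 34 members in both tables, was 121 to 370 CPM in RPMS liver and 891 to 4310 CPM in RPM lung libraries. Bst2 (tetherin) had 0.212, 0.573, 1.59 and 2.06 CPM in RPMS liver and 268, 169, 69.4 and 327 CPM in RPM lung libraries (-9.78, SE 1.84, adjusted p = 0.00186). Oas1a, the oligoadenylate synthetase whose window is shown above, had 1 count in all liver libraries and 9019 in all RPM libraries, a CPM ratio of 0.000165 without the set term (95% counting interval 4.19e-06 to 0.000922). Isg15, a ubiquitin-like interferon product, had 0.106 to 0.741 CPM in RPMS liver and 1.82, 24.2, 45.7 and 135 CPM in RPM lung libraries (-9.05, adjusted p = 0.0458). Isg15 did not pass without line CMV_252 (-8.67, adjusted p = 0.17) or without line CMV_344 (adjusted p = 0.0587).

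The liver count of the interferon list was 11 without line CMV_252, 16 without line CMV_344 and 26 without the set term. Within the RPM lung libraries the interferon sums were 3519, 1946, 891 and 4310 CPM in lines CMV_426 to CMV_429, and the leukocyte sums 18596, 12424, 3674 and 6036 CPM, both lowest in line CMV_428. In all RPMS libraries both sums were below every RPM library.

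Of the 6 interferon and interleukin-10 receptor genes, 5 fell in liver lines and 5 in lung lines over RPM lung lines. The shares over all genes tested were 13.6% and 18.2%. The liver count was 4 without line CMV_252. Ifnar2, a subunit of the type I interferon receptor, had 10.96, 9.85, 9.10 and 11.996 CPM in RPMS liver and 74.3, 65.6, 51.4 and 66.6 CPM in RPM lung libraries (-3.15, SE 0.43, adjusted p = 0.000268). Its partner Ifnar1 had 46.6 to 60.7 against 105 to 129 CPM (-1.37, adjusted p = 0.00216), and Ifngr2, of the interferon gamma receptor, 16.05 to 25.8 against 96.8 to 147 CPM (-2.62, adjusted p = 0.000813). None of the 3 overlapped in CPM, as for 47.2% of all genes tested, with the set difference still in the levels. The interval of liver over lung for Ifnar2 ran from -1.31 to 0.28. Ifngr1 was at -1.25 and did not pass.

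The MHC class I list had 13 of 19 genes lower in liver lines and 13 in lung lines over RPM lung lines, 11 of them in both. All genes tested were called lower at 13.6% and 18.2%. Its liver median was -4.47, and the liver count was 10 without line CMV_252 and 11 without line CMV_344. B2m, the light chain of class I, had 3.49, 14.2, 11.2 and 10.4 CPM in RPMS liver and 2204, 652, 353 and 1265 CPM in RPM lung libraries (-7.38, SE 1.41, adjusted p = 0.00204). The heavy chain genes H2-D1 (-4.47, adjusted p = 0.00406) and H2-K1 (-4.80, adjusted p = 0.047), chosen after their values were seen, also fell. H2-K1 did not pass without line CMV_252 (-4.41, adjusted p = 0.0826) or without line CMV_344 (adjusted p = 0.0679). Heavy chain, Ifitm, Oas and histone genes have near copies between which the counting could split reads, so single members are uncertain. H2-K1 varied among the liver lines, at 1.27, 4.90, 68.4 and 25.9 CPM, all below the RPM range of 120 to 684 CPM. Erap1, which trims peptides for class I, and Tapbp, which loads them, fell by 3.19 and 4.50.

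Among NF-kB and inflammatory genes, 12 of 18 fell in liver lines and 16 in lung lines over RPM lung lines, with a liver median of -4.04. Over all genes tested the shares that fell were 13.6% and 18.2%. Tnf had 1 count in all RPMS liver libraries and 597 in all RPM lung libraries (CPM ratio 0.0025 without the set term, 95% counting interval 6.32e-05 to 0.0140), at 5.32 to 6.39 CPM in the RPM libraries. The chemokine Ccl5 likewise had 1 count against 768 (CPM ratio 0.00194 without the set term, interval 4.91e-05 to 0.0109). The neutrophil chemokine Cxcl1 had at most 0.260 CPM in RPMS liver and 2.93 to 11.1 CPM in RPM lung libraries (-7.83, adjusted p = 0.00271). Macrophages make all 3 as well, and the leukocyte markers, all 16 lower in liver lines and in lung lines, stand beside these genes with a median of -13.07 in liver lines (-13.04 with the gene at 0 at its bound). Msr1, a macrophage scavenger receptor, had no count in any RPMS liver library and a mean of 282 CPM (SD 98.3, n = 4) in RPM lung libraries, at least 1493-fold lower, and Adgre1 had at most 0.375 against 185 to 522 CPM.

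**Figure D3:**
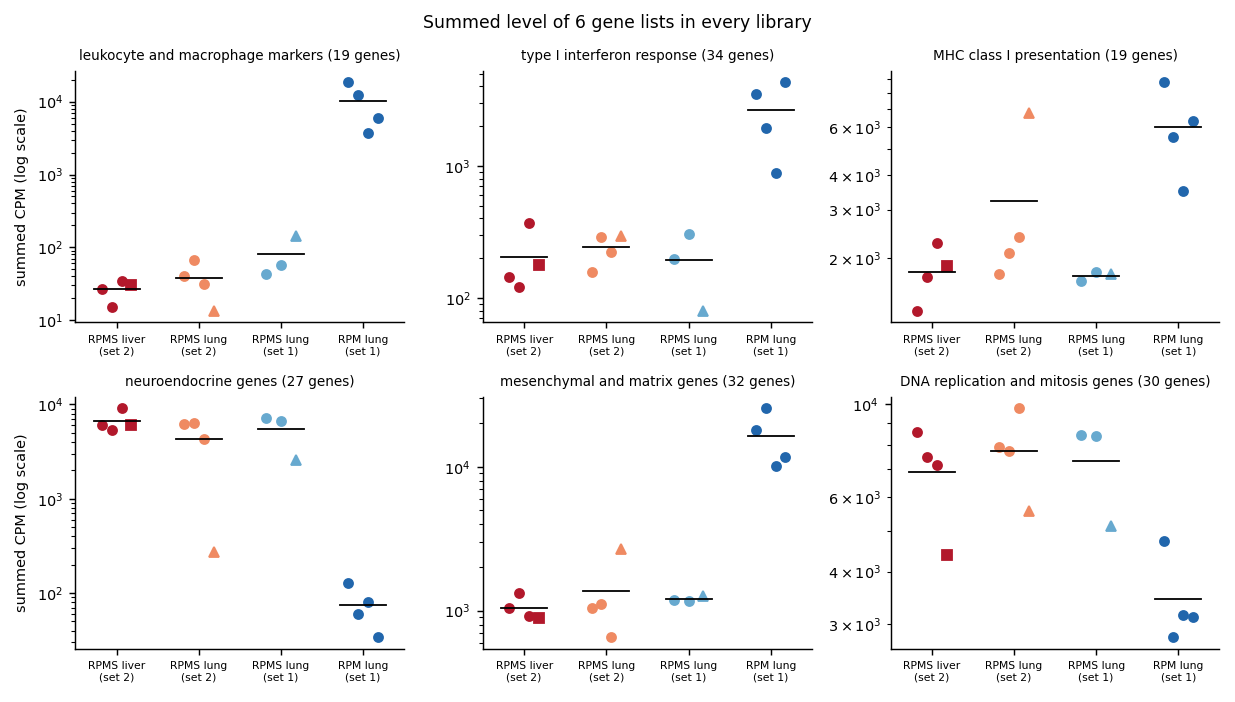
Summed CPM of gene lists in each library on a log axis, with RPMS liver at the left and RPM lung at the right. Points are libraries, triangles line CMV_252 and squares line CMV_344, and bars group means. The leukocyte sum is 14.95 to 34.2 CPM in RPMS liver and 3674 to 18596 CPM in RPM lung libraries, and the neuroendocrine sum 5341 to 9070 and 34.1 to 127 CPM.

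Of 27 tested neuroendocrine genes, 25 rose in RPMS liver lines and 23 in RPMS lung lines over RPM lung lines, with a liver median of 9.66. Over all genes tested the shares that rose were 16.7% and 20.7%. Ncam1, the neural cell adhesion molecule CD56, had 168, 259, 296 and 269 CPM in RPMS liver and 7.23, 9.99, 7.99 and 4.45 CPM in RPM lung libraries (5.99, SE 0.39, adjusted p = 3.37e-06). Scg5, a chaperone of the convertase PC2, had 34.7 to 73.8 CPM in RPMS liver, and 2.63 CPM in line CMV_426 and 0 in the other RPM lung libraries (9.58, adjusted p = 0.000333). No liver library overlapped an RPM library for either gene in CPM, as for 47.2% of all genes tested. Eno2 (neuron-specific enolase) and Pcsk1 (a prohormone convertase) did not pass, with adjusted p of 0.144 and 0.185.

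Against RPMS lung lines, the neuroendocrine genes had a liver median of 1.62 with line CMV_252 in the fit and 0.08 without it. The liver over lung difference of Dcx was 2.98 with line CMV_252 and 1.24 without it, that of Chga 2.43 and 0.65, that of Scg3 1.71 and 0.08, and that of Lrrn1 3.49 and 2.14. None of these passed after adjustment. The count of neuroendocrine genes that rose in liver lines over RPM lung lines was 24 without line CMV_252.

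Synaptic vesicle genes followed, with 24 of 29 higher and 2 lower in liver lines and 25 higher and 2 lower in lung lines over RPM lung lines. Syt1, the calcium sensor of vesicle release, had 189, 179, 288 and 197 CPM in RPMS liver and 5.35, 0, 0.475 and 0.473 CPM in RPM lung libraries (10.65, SE 1.63, adjusted p = 0.000516). Rims1, of the presynaptic active zone, was at least 85.0-fold higher. Those that fell were Sypl, a synaptophysin relative found outside neurons (21.7 to 34.6 against 121 to 166 CPM, -3.03, adjusted p = 0.000195), and the monoamine transporter Slc18a1 (-3.77). The list's liver over lung median was 0.77, and 0.00 without line CMV_252.

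Of 28 axon guidance and neural adhesion genes, 17 rose in liver lines, and 16 rose and 3 fell in lung lines over RPM lung lines, with a liver median of 6.26 (4.80 with 5 genes at 0 in RPM libraries set at their bound). The ephrin receptor Epha5 had 23.7, 13.8, 32.3 and 6.65 CPM in RPMS liver libraries and no count in any RPM library, at least 161-fold higher. Its relative Epha7 had 7.15 to 20.1 CPM in RPMS liver libraries, 0.831 CPM in RPM line CMV_428 and 0 in the other RPM libraries (8.96, adjusted p = 0.000206). The netrin receptor Dcc was at 10.92, and the Slit receptors Robo1 and Robo2 at 8.66 and 7.19, all past the threshold.

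Of 23 lineage transcription factors, 13 rose and 1 fell in liver lines over RPM lung lines, beside 16.7% and 13.6% of all genes tested. Without line CMV_252 the number that rose was 11, and without line CMV_344 it was 12. Insm1, a zinc-finger factor of neuroendocrine cells, had 682 to 1227 CPM in RPMS liver and 0 to 9.91 CPM in RPM lung libraries (10.32, adjusted p = 0.00973). Neurod1 divided the liver lines, with 33.1 and 62.5 CPM in lines CMV_273 and CMV_341, 0.794 and 0.562 CPM in lines CMV_343 and CMV_344, and no count in RPM lung libraries. Myb, a proto-oncogenic transcription factor, had 99.9 to 326 against 0.118 to 0.878 CPM (8.66, adjusted p = 7.36e-05), Sox11 282 to 647 against 0.748 to 13.7 CPM (6.10, adjusted p = 0.000218), and Mycn, at 8.62 to 19.8 CPM, was at least 127-fold higher. Rest, the repressor of neuronal genes, was the member that fell, with 0.688 to 5.998 CPM in RPMS liver and 59.1 to 74.7 CPM in RPM lung libraries (-7.28, adjusted p = 0.0081). Nkx2-1, a lung lineage factor, had 4.38 CPM in liver line CMV_341 and up to 645 CPM in the other liver lines, against 15.6 to 125 CPM in RPM lung libraries (0.80, adjusted p = 0.755). Insm1, Neurod1, Rest and Nkx2-1 were chosen after their values were seen.

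The Notch list had 5 of 21 genes higher and 5 lower in liver lines, and 7 higher and 6 lower in lung lines, over RPM lung lines. The liver counts were 7 higher and 4 lower without line CMV_252. Of all genes tested, 16.7% were higher and 13.6% lower in liver lines and 20.7% and 18.2% in lung lines, so these counts are not read as a result about the list. The ligands Dll4 (15.5 to 20.1 CPM in RPMS liver, and 0.608 CPM in 1 and 0 in 3 RPM libraries; 10.43, adjusted p = 0.00147), Dll1 (5.93; adjusted p = 0.06 without line CMV_344) and Jag2 (3.70) rose. The receptor Notch2 fell, with 12.02 to 30.0 against 172 to 237 CPM (-4.51, SE 0.67, adjusted p = 0.000411), as did the target Hes1 (-4.98), the DNA-binding partner Rbpj (-1.20) and the inhibitor Numb (-1.87, adjusted p = 0.000851). Dll3, an inhibitory ligand of small cell lung cancer, had 3.23 to 145 CPM in RPMS liver and 0 to 0.251 CPM in RPM lung libraries, and its difference did not pass (10.45, adjusted p = 0.0661; 10.54 and 0.018 without line CMV_252).

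Mesenchymal and matrix genes were lower in liver lines for 22 of 31 members and higher for 3, against 25 lower and 3 higher in lung lines, over RPM lung lines. Their sum was 894 to 1334 CPM in RPMS liver and 10139 to 25463 CPM in RPM lung libraries. Ctsb, a cysteine protease also counted among the lysosome genes, had 66.96, 53.5, 123 and 127 CPM in RPMS liver and 9288, 6719, 3068 and 3601 CPM in RPM lung libraries (-5.94, SE 0.62, adjusted p = 5.33e-05). Twist2 had no count in liver libraries and 1.34 to 9.81 CPM in RPM lung libraries, at least 23.5-fold lower. Vim (vimentin), chosen after its values were seen, varied among liver lines, at 2.91, 161, 28.5 and 3.75 CPM, against 565 to 1045 CPM in RPM lung libraries (-8.68, adjusted p = 0.0053). The members that rose are also known in neuroendocrine or neural cells: Zeb1 (112 to 172 against 27.96 to 68.6 CPM; 2.47, adjusted p = 0.000345), the N-cadherin gene Cdh2 (6.53, adjusted p = 0.01) and Cdh11 (4.96). Spp1 (osteopontin), made by macrophages too, had at most 3.18 CPM in RPMS liver and 788 to 12047 CPM in RPM lung libraries (-9.44, adjusted p = 0.0249), and did not pass without line CMV_252 (adjusted p = 0.157). Without line CMV_252, 17 members were lower, and the median of -5.71 was -5.50 with Twist2 at its bound.

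Of 22 lysosome genes, 20 fell in liver lines and 22 in lung lines over RPM lung lines, with a liver median of -3.94. Lamp1, a lysosomal membrane protein, had 277, 211, 209 and 173 CPM in RPMS liver and 2671, 1265, 1275 and 1255 CPM in RPM lung libraries (-3.13, SE 0.39, adjusted p = 0.00016). The list's sum was 1705 to 2146 CPM in RPMS liver and 14852 to 48629 CPM in RPM lung libraries, where it was highest in line CMV_426, the line with the highest leukocyte sum. Epithelial genes did not share this pattern: 1 of 17 passed in liver lines, the tight junction gene Tjp1 (99.8 to 162 against 38.6 to 109 CPM, overlapping; 1.43, adjusted p = 0.0289), and the median was -0.03.

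**Figure D4:**
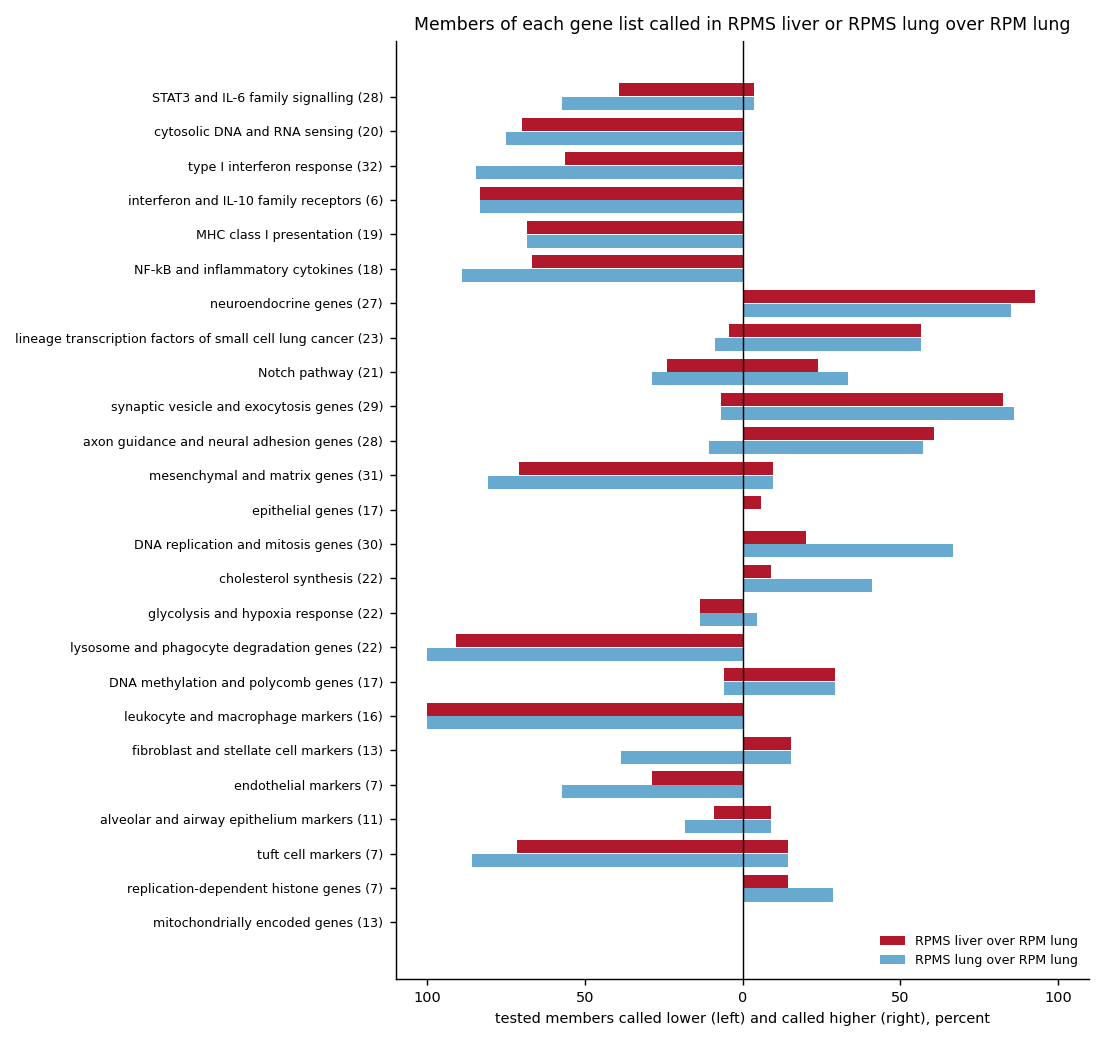
Share of the tested genes of each list called higher or lower, in percent, for RPMS liver over RPM lung lines and for RPMS lung over RPM lung lines. Neuroendocrine and synaptic lists lie on the higher side and leukocyte, lysosome, sensing and interferon lists on the lower side in both comparisons, which share the RPM libraries.

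Of 30 replication and mitosis genes, 6 rose in liver lines and 20 in lung lines over RPM lung lines, and the liver count is near the share of all genes called higher there (16.7%). The difference between those counts was not tested, and the list's median was 0.89 in liver lines, 1.19 in lung lines and -0.24 for liver over lung lines. Line CMV_344 had the lowest sum of the liver libraries, 4378 CPM, against 7172 to 8590 CPM in the other 3 and 2799 to 4725 CPM in RPM lung libraries. Without line CMV_344 the liver count was 13, and without line CMV_252 also 13. Mcm2, a subunit of the replicative helicase, had 665, 470, 480 and 495 CPM in RPMS liver and 209, 170, 166 and 217 CPM in RPM lung libraries (1.64, SE 0.26, adjusted p = 0.000606). The cyclin Ccne2 had 95.9 to 124 against 25.9 to 46.0 CPM (2.32, adjusted p = 0.00111). Rrm2, of ribonucleotide reductase, had 67.9 CPM in liver line CMV_344 and up to 339 CPM in the other liver lines, against 26.9 to 46.9 CPM in RPM lung libraries (2.10, adjusted p = 0.0163).

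Cholesterol synthesis genes were called for 2 of 22 members in liver lines and 9 in lung lines, all higher than in RPM lung lines. Of all genes tested, 16.7% were called higher in liver lines and 20.7% in lung lines, so the liver count is below its background. The list's median was 0.30 in liver lines and 1.03 in lung lines, and -0.60 for liver over lung lines. Without line CMV_344, which had the lowest sum of the liver libraries (1277 CPM, against 1857 to 2714 CPM in the other 3), the liver over lung median was -0.35, and without line CMV_252 it stayed at -0.60. Of its 22 members, 1 had a liver over lung estimate above 0 and 5 an unadjusted p under 0.05, and none passed after adjustment. Fdft1, squalene synthase, had 100.8, 106, 123 and 83.2 CPM in RPMS liver, 133 to 225 CPM in RPMS lung libraries of set 2 and 122 to 199 CPM in those of set 1, and 42.1, 44.4, 35.2 and 92.2 CPM in RPM lung libraries. Each liver library of Fdft1 lay below each set 2 lung library. Sqle, squalene epoxidase, rose in liver lines, with 143 to 240 against 102 to 137 CPM (1.06, adjusted p = 0.0104), as did Cyp51 (1.14, adjusted p = 0.0351), which did not pass without line CMV_252 (0.91, adjusted p = 0.0781).

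Glycolysis and hypoxia genes were lower for 3 of 22 members in liver lines, the share of all genes called lower there (13.6%), and in lung lines 3 were lower and 1 higher, each over RPM lung lines. P4ha1, a collagen prolyl hydroxylase, had 24.9 to 33.8 against 82.8 to 130 CPM (-1.81, adjusted p = 0.0082). Of 17 DNA methylation and polycomb genes, 5 rose and 1 fell in both comparisons, and without line CMV_252 the liver counts were 6 and 3. Of all genes tested, 16.7% were higher and 13.6% lower in liver lines, and 20.7% and 18.2% in lung lines. These few calls are not read as a result about the list. Tet1, a 5-methylcytosine oxidase, had 38.3, 41.1, 45.9 and 28.1 CPM in RPMS liver and 2.21, 0.456, 0.316 and 0.473 CPM in RPM lung libraries (6.54, SE 0.72, adjusted p = 6.79e-05). Uhrf1, of maintenance methylation, rose by 1.34 and the methyltransferase gene Ezh2 by 1.51 (adjusted p = 0.0175), while its paralog Ezh1 fell by 2.21 with overlapping groups. Of 7 histone genes 1 rose in liver lines, near the share of all genes called higher there (16.7%). It was Hist1h4d (2.15, adjusted p = 0.0345), which did not pass without line CMV_252 (1.81, adjusted p = 0.0675) or without line CMV_344 (1.81, adjusted p = 0.0644). The 13 mitochondrially encoded genes had a median of -0.63, with mt-Co1 at -1.03 (adjusted p = 0.174, and 0.0202 without line CMV_252).

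Genotype differences that were larger in liver than in lung lines at an unadjusted p under 0.05 made up 3.60% of the 6325. The share was 5.82% of the genes higher in RPMS lung lines and 1.08% of the genes lower. Of all genes tested, 4.40% had such a p, but in either direction, so 3.60% and 4.40% are not like shares. No result is read from them, and the genes below are a description. Cgnl1, a junction protein of the paracingulin family, had 4.08, 1.15, 1.53 and 1.12 CPM in RPMS liver libraries, 14.6 to 178 CPM in RPMS lung libraries of set 2, 2.57, 8.24 and 34.7 CPM in those of set 1, and 180, 224, 91.8 and 200 CPM in RPM lung libraries. It fell by 9.24 in liver lines (adjusted p = 0.000368) and by 4.54 in lung lines (adjusted p = 0.00127), each over RPM. The liver over lung difference of -4.70 (SE 1.20) had an unadjusted p of 0.00157 and was -4.10 without line CMV_252.

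The other genes named on this side, given by their log2 liver over lung difference, were higher in liver lines, and most have neural or neuroendocrine roles. Lrrtm1, a synaptic adhesion protein, had 27.1, 24.6, 36.9 and 33.6 CPM in RPMS liver, 0 to 9.31 CPM in RPMS lung of set 2 and 0.209, 0, 0 and 0 CPM in RPM lung libraries, with every liver library above every lung library of either set (liver over lung 4.65, and 3.09 without line CMV_252). Ndn (necdin, a growth suppressor of neurons) was at 3.996, where liver line CMV_273 had 128 CPM and the other liver lines 6.99 to 13.4 CPM. The granin Scg2 was at 3.85 (2.66 without line CMV_252). Adcyap1r1, the receptor for the neuropeptide PACAP, was at 3.80 and at least 91.9-fold higher in liver than in RPM lung lines. Ppp1r17, a phosphatase inhibitor, was at 3.67, and its bound over RPM lung lines was 179-fold. None of the liver over lung differences of these 6 genes passed after adjustment.

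Genotype differences nearer to RPM in liver than in lung lines at an unadjusted p under 0.05 made up 1.74%, beside 4.40% of all genes tested in either direction. Matn4, a matrilin of the extracellular matrix (chr2:164389393-164405160), had 0.265, 0.208, 0.423 and 0.843 CPM in RPMS liver libraries, 12.8, 26.4, 49.9 and 25.5 CPM in RPMS lung libraries of set 2, 0.470, 1.39 and 3.15 CPM in those of set 1, and 0.501, 0, 0 and 0 CPM in RPM lung libraries. It was higher in lung lines over RPM (5.10, adjusted p = 0.00366) and did not pass in liver lines over RPM (-0.93, adjusted p = 0.63). The liver over lung difference was -6.03 (SE 0.82, adjusted p = 0.0439), and within set 2 alone edgeR gave -6.05 (adjusted p = 0.0855). Among fits that left out 1 library each, the call was kept when RPM line CMV_426 was left out and lost for every other library, and without line CMV_252 the adjusted p was 0.154.

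The other 5 genes varied among the liver lines. Serpinb8, a protease inhibitor, had 0.953, 12.1, 37.1 and 1.87 CPM in RPMS liver, at most 0.217 CPM in RPMS lung of set 2 and 11.1 to 37.5 CPM in RPM lung libraries (liver over lung 6.23). Fxyd5, an ion pump regulator, had 0, 6.72, 11.5 and 3.94 CPM in RPMS liver, no count in RPMS lung of set 2 and 54.2 to 151 CPM in RPM lung libraries (5.78). Kcnj2, a potassium channel, had 15.9 CPM in line CMV_341 and at most 2.22 CPM in the other liver lines, against 22.1 to 41.5 CPM in RPM lung libraries (3.48). For Fxyd5 and Kcnj2 the liver libraries stayed below all RPM libraries in CPM, which does not carry the set term. The bridged liver over RPM difference in limma-voom did not pass for Fxyd5 (-5.54, adjusted p = 0.112) or Kcnj2 (-3.76, adjusted p = 0.0922). That of Serpinb8 did not pass either (2.65, adjusted p = 0.338). Als2cl and Slc43a3 were at 3.29 and 3.20, and liver lines remained lower than RPM lines for both (-3.45, adjusted p = 0.0496, and -8.01, adjusted p = 0.00507), although Als2cl did not pass without line CMV_252 (adjusted p = 0.0959) or line CMV_344 (adjusted p = 0.0562).

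Mybpc1, a myosin-binding protein of skeletal muscle (chr10:88518279-88605152), was the gene called higher in liver lines. It had 1.06, 3.75, 1.01 and 1.41 CPM in RPMS liver libraries, 0.0558, 0.109, 0 and 0.0747 CPM in RPMS lung libraries of set 2, and no count in RPMS lung libraries of set 1 or in RPM lung libraries. The liver over lung difference was 4.36 (SE 0.60, adjusted p = 0.0439), and liver over RPM lung lines was at least 15.2-fold. Within set 2 alone edgeR gave 4.78 (adjusted p = 0.944), and among fits that left out 1 library each the call was kept without liver line CMV_273 alone. DESeq2 called it too (adjusted p = 0.0218).

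**Figure D5:**
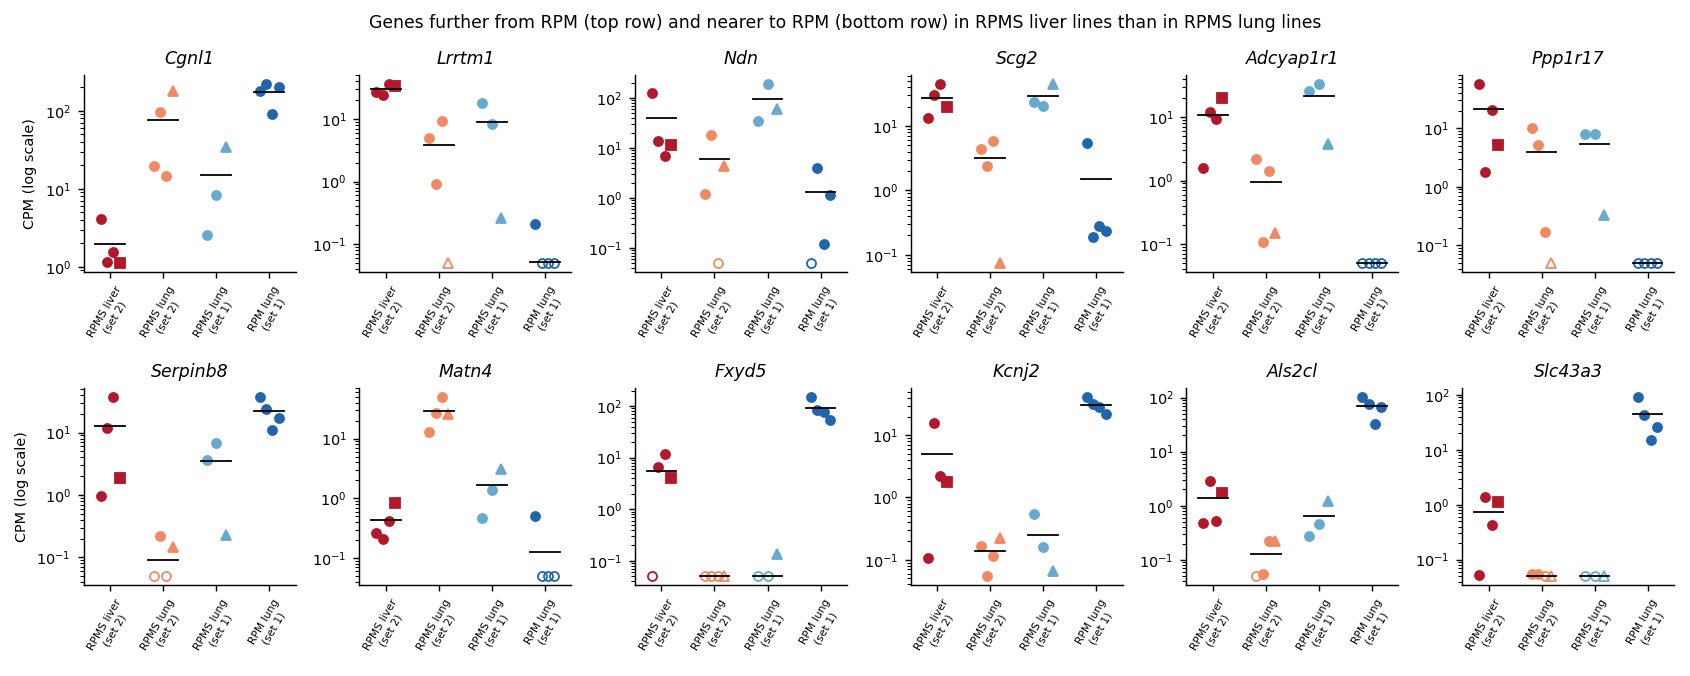
Level of the genes named as further from or nearer to RPM in liver lines, in CPM on a log axis, in each library, with RPMS liver at the left and RPM lung at the right. Points are libraries, triangles line CMV_252 and squares line CMV_344, open symbols at 0.05 CPM stand for values below it, and bars are group means. Matn4 is high in the set 2 lung libraries alone (12.8 to 49.9 CPM), and Lrrtm1 is high in every liver library (24.6 to 36.9 CPM).

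Markers of other cell types were mostly low in liver lines. Among 13 tested fibroblast and stellate markers, 2 were higher and 5 lower in lung lines, and 2 rose in liver lines, a share near that of all genes called higher there (16.7%), each over RPM lung lines. Those in liver lines were Reln (6.51 to 43.0 against 0 to 0.0836 CPM; 9.34, adjusted p = 0.00573) and Thy1 (0.106, 34.4, 10.1 and 15.3 against 0 to 0.167 CPM, overlapping; 12.52, adjusted p = 0.00238), both also known in neurons. All 13 had a liver over lung estimate above 0, with a median of 1.79 (2.77 without line CMV_252), and none passed after adjustment. Their sum was 9.85 CPM in liver line CMV_273, 154 in CMV_341, 48.1 in CMV_343 and 70.9 in CMV_344, against 7.54 to 37.2 CPM in RPMS lung libraries of set 2 and 24.5 to 729 CPM in RPM lung libraries. Liver line CMV_341 held the highest liver values of Dcn (36.2 CPM), Sparc (78.4 CPM) and Vim (161 CPM). Of 7 endothelial markers, Eng (0.318 to 0.476 against 17.2 to 23.8 CPM, log2 fold change -6.73, adjusted p = 2.39e-05) and Flt1 (-7.30, adjusted p = 0.0465) fell. Flt1 did not pass without line CMV_252 (-8.68, adjusted p = 0.0743), which left 1 of the 7 called lower. With all libraries 13.6% of all genes tested were called lower, so the count is not read as a result about these markers. Of 7 tuft cell markers, 5 fell and 1 rose, beside 13.6% and 16.7% of all genes tested. Those that fell, such as Vav1, Plcg2, Alox5ap and Ptgs1, include genes of macrophages and other leukocytes. Dclk1, also of neurons, rose (3.80, adjusted p = 0.0185). Ptgs1 did not pass without line CMV_252 (adjusted p = 0.0582).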

How the data were processed

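The authors deposited 2 tables of whole-number read counts per gene. Libraries were made with a stranded total RNA kit per the labels' protocols; HISAT2, StringTie and GRCm38 are named in the submitters' processing notes, and their roles and versions are not given in the sources used here. Blank gene names (1832 records, at most 0.07995% of counts), repeated symbols and date-like names were left out of library sizes and tests. All 15 libraries were fitted together with limma 3.58.1 on voom weights with edgeR 4.0.16 TMM factors in R 4.3.3. Group and set were fixed terms, and the line was a random block (consensus correlation 0.396). P-values were adjusted by Benjamini-Hochberg over the 18477 genes that passed the filter, pseudogenes included. Pseudogenes were then left out of counts and names. The same lines deviated together across sets (r = 0.424, 0.522 and 0.525 for lines CMV_228, CMV_231 and CMV_252). The crossed values of lines CMV_228 and CMV_231 were 0.345 and 0.244, and those of either with line CMV_252 ran from -0.513 to -0.389. Each line was thus closest to its own number, and the libraries were paired by number. For line CMV_228 the margin was small (0.424 against 0.345), so these values do not settle its pairing with certainty. edgeR's quasi-likelihood test and DESeq2 1.42.0 were alternatives. Intervals of count ratios and the floors cover counting error only. Intervals of liver over lung differences came from the standard errors of the joint fit, which also hold the spread between libraries.

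Named genes were the genotype genes, the 6 largest changes each way over RPM without overlap and with at least 20 CPM, up to 6 genes each with the largest liver over lung change further from and nearer to RPM, and up to 3 genes per list with the smallest p. A few genes are not reported here. Members and lists were chosen with earlier results of these data known.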

Additional observations from a re-analysis of the deposited data

Results flagged for a closer look

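In groups of 4 libraries, the highest or lowest value of a named gene stood apart from the other 3 in 63 of 295 sets of values looked at, over 103 genes. The nominal rate of the rule is about 1 in 20 groups. It does not hold where the other 3 values are 0, since any count is then flagged, as for Msr1 in line CMV_228 (0.0558). The chance rate in these data was not measured. The set 2 library of lung line CMV_252 gave 23 of them and RPM line CMV_426 gave 11. All values are in CPM.

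Among RPMS liver libraries, line CMV_273 was highest for Cgnl1 (4.08), Ndn (128), Mcm2 (665) and Tat (3.55). Line CMV_341 was highest for Ifitm3 (0.365), Kcnj2 (15.9), Mybpc1 (3.75), Ccl5 (0.0521), C1qa (0.0521) and Mgp (10.7). Line CMV_343 was highest for Rb1 (161) and Syt1 (288), and line CMV_344 for Gpnmb (0.656), Oas1a (0.0937), Tnf (0.0937), Adgre1 (0.375) and Vav1 (1.31).

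Among RPMS lung libraries of set 2, line CMV_252 was highest for interferon, receptor and class I genes: Ifitm3 (1.72), Ddx58 (20.5), Bst2 (103), Ifnar2 (23.8) and B2m (158). It was also highest for Cd36 (0.822), Ctss (0.373), Gpnmb (0.523), Osmr (1.64), Tnf (0.0747), Cxcl1 (1.42), Notch2 (126), Sypl (71.8), Ctsb (395), Twist2 (0.0747), Esrp2 (5.75), P4ha1 (99.8), Mgp (0.448), Kdr (6.20) and Trp63 (0.224). Its mitochondrially encoded genes mt-Co1 (50099), mt-Nd6 (1743) and mt-Nd5 (6287) stood apart too. Line CMV_228 was highest for Msr1 (0.0558) and Adgre1 (0.0558), line CMV_231 stood apart for Samhd1 (172) and line CMV_232 for Tat (3.44).

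Among RPM lung libraries, line CMV_426 was highest for neuroendocrine and synaptic genes: Chga (6.81), Scg3 (4.05), Eef1a2 (3.43), Lrrtm1 (0.209), Scg2 (5.35), Scg5 (2.63) and Syt1 (5.35). It was also highest for Matn4 (0.501), Krt7 (11.5), Lamp1 (2671) and Tet1 (2.21). Line CMV_427 stood apart for Dll4 (0.608). Line CMV_428 was lowest for Ccl5 (1.86) and stood apart for Epha7 (0.831), Tat (0.158), Kdr (326) and mt-Co1 (18344). Line CMV_429 was highest for Fdft1 (92.2) and lowest for Apoa2 (0.354).

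The liver and lung differences from RPM lines differed for Matn4 (-6.03) and Mybpc1 (4.36) by the test of the difference itself.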

How the results depend on the processing

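Of 116 results on named genes, 70 kept their call and direction under every alternative tried. One reversed: the liver over RPM difference of Myc was 0.77 without the set term. Counts of genes moved by over 1.5 times as follows, and the cause was not tested. Liver over RPM gave 4362 genes higher without the set term, 1367 higher and 1076 lower when tested against a log2 fold change of 1, and 1484 higher and 1164 lower at an adjusted p under 0.01. Lung over RPM gave 1434 higher and 1543 lower against a change of 1, and 1958 higher at 0.01. The held genes numbered 2250 and 2474 under these settings. The set term was called for 1878 genes in voom without a block, 1730 in edgeR without and 1815 with the line as a replicate block, 15417 with no filter on low counts, 6023 with sample quality weights, 675 against a change of 1 and 1771 at 0.01. Liver against lung lines gave 0 calls in voom and edgeR without a block, with no filter, with pseudogenes removed before the fit, without line CMV_252, without lines CMV_252 and CMV_344 (chosen after seeing the data), within set 2, against a change of 1 and at 0.01, where 108 to 2871 genes had an unadjusted p under 0.05; it gave 1 in edgeR with the replicate block and without the set term, and 78 in DESeq2. With the replicate block in edgeR, the liver calls were 2138 higher and 1626 lower. Leaving out 1 library gave 2260 to 3202 genes higher and 1803 to 2154 lower in liver over RPM, 2783 to 3839 higher and 2484 to 3316 lower in lung over RPM, 3757 to 4959 held, 2417 to 3448 for the set term and 0 to 5 between liver and lung lines, with 5 when liver line CMV_273 was left out. Line CMV_344, with 9453715 counts, limits what can be seen of weak genes.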
